A study of Mus musculus with 32 samples.

Results

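A-485 is a small molecule that blocks the acetyltransferase activity of CBP and p300, and it was given to mouse zygotes before the embryos reached the late 2-cell stage. RNA of late 2-cell embryos was compared between embryos that had been exposed to A-485 and embryos exposed to DMSO, the solvent. The comparison rested on 4 of the 32 samples of the series, 2 libraries from A-485 embryos and 2 from DMSO embryos, chosen by their labels alone. All embryos were wild type and came from in vitro fertilization with oocytes and sperm of B6D2F1/J mice aged 6 to 8 weeks. They were cultured in KSOM, with 10 µM A-485 or with DMSO, and the inhibitor was present from 4 to 20 hours after fertilization (hpi) and then washed away. The late 2-cell RNA was therefore sampled after the drug had been removed. The hour of collection and the number of embryos in each library were not given in the sources used here. The labels number the libraries 1 and 2 but do not say that they came from separate cultures, so the p-values measure only the spread between these libraries.

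CBP and p300 are related coactivators that acetylate lysines on histone tails, among them lysine 27 of histone H3, at promoters and enhancers. The mouse embryo starts life with RNA stored in the oocyte, begins to transcribe its own genome weakly in the zygote, and turns on a large set of genes during the 2-cell stage. That major wave of zygotic genome activation includes genes for making RNA, ribosomes and proteins, while much of the stored maternal RNA is destroyed. Total RNA was sequenced, so an RNA that stays high can be stored as well as newly made. In these whole-embryo libraries with no spike-in RNA, fewer embryos and less RNA per embryo cannot be told apart, and every change below is relative to the rest of the library.

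The RNA of both drug targets was read in each library first. Ep300, which encodes p300 (chr15:81585351-81652077, GRCm38, as are all coordinates here), had 42.2 and 43.03 FPKM (fragments per kilobase of transcript, scaled to library size) in the A-485 libraries and 116 and 124 FPKM in the DMSO libraries. Its log2 fold change, A-485 against DMSO, was −1.92 (SE 0.09), and both A-485 libraries lay below both DMSO libraries. Crebbp, which encodes CBP (chr16:4081328-4213997), had 345 and 354 FPKM after A-485 and 232 and 196 FPKM after DMSO, a log2 fold change of 0.55 (SE 0.08) that did not reach the 2-fold cutoff. The inhibitor acts on the proteins, so neither level checks the labels.

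The libraries held 13206163 and 14922961 expected counts after A-485 and 23067712 and 19215326 after DMSO. Although they were shallower, the A-485 libraries had more genes with at least 10 counts, 17269 and 17751 against 15617 and 15386. All 8 markers of the oocyte and early embryo were detected in all 4 libraries and summed to between 420.18 and 420.46 FPKM after A-485 and between 328.79 and 376.75 after DMSO. Pou5f1 and stored oocyte RNAs set that sum, while Zscan4d and Zfp352, which mark the 2-cell stage, both fell (log2 fold changes −2.35 and −2.22), so the sum does not check the stage. Markers of other cells were low. The 10 cumulus cell markers summed to between 4.53 and 4.66 FPKM after A-485 and between 8.64 and 12.65 after DMSO, with Amh and Fshr at 0 in all 4 libraries. Most of the DMSO sum was Amhr2, called lower at 0.65 and 0.04 FPKM against 6.95 and 10.67, while Has2 and Foxl2 were called higher. The 7 sperm markers summed to between 2.55 and 3.09 FPKM against 1.25 to 2.37, with Tnp2 at 0 throughout. The 6 erythroid markers summed to between 0.43 and 0.55 FPKM against 3.53 to 4.56, with Hbb-bs and Hbb-bt at 0 throughout. Most of the erythroid DMSO sum was Hba-a2, called lower at 0.10 and 0 FPKM against 2.82 and 3.81. The 6 fibroblast markers summed to between 14.22 and 16.41 FPKM against 0.13 to 0.64, nearly all of it Pdgfra, while Dcn and Lum were at 0 in all 4 libraries. The 7 blastocyst markers summed to between 40.75 and 43.93 FPKM against 60.22 to 61.34, and this sum was mostly Gata4, which fell. The other 6 summed to 26.43 and 28.26 FPKM after A-485 and to 4.34 and 3.8 after DMSO, with Krt7, Krt18 and Sox17 called higher and Krt7 at 0 in both DMSO libraries.

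A gene was called when edgeR's quasi-likelihood test gave a Benjamini-Hochberg adjusted p under 0.05, the change was at least 2-fold and the mean FPKM of either group was at least 1. Of 22822 genes tested, 16.8% were called lower and 10.5% were called higher after A-485. Among the 14151 genes that averaged 1 FPKM or more over the 4 libraries, the shares were 26.4% lower and 12.5% higher, and these serve as the background for the well-expressed functional lists below. The 2 directions differed in the level of the genes. From a mean FPKM of 10 to 30, 41.3% of genes fell and 5.52% rose, and from 30 to 100 FPKM the shares were 42.3% and 3.07%. The functional lists were not matched for level, so lists of genes at these levels are also to be read against these higher shares. From 1 to 3 FPKM 9.09% fell and 22.4% rose, and from 0.3 to 1 FPKM 1.86% fell and 12.9% rose. The median log2 fold change was 2.01 below 0.3 FPKM, 1.50 from 0.3 to 1, 0.59 from 1 to 3, −0.06 from 3 to 10, −0.63 from 10 to 30, −0.66 from 30 to 100 and −0.13 above. Olfactory and vomeronasal receptor genes, which serve the sense of smell, had at least 1 count at 240 and 247 genes after A-485 and at 126 and 130 genes after DMSO. The higher level of faint RNAs after A-485 came with every group of low-level genes described below, and its part in those results was not tested.

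**Figure D1:**
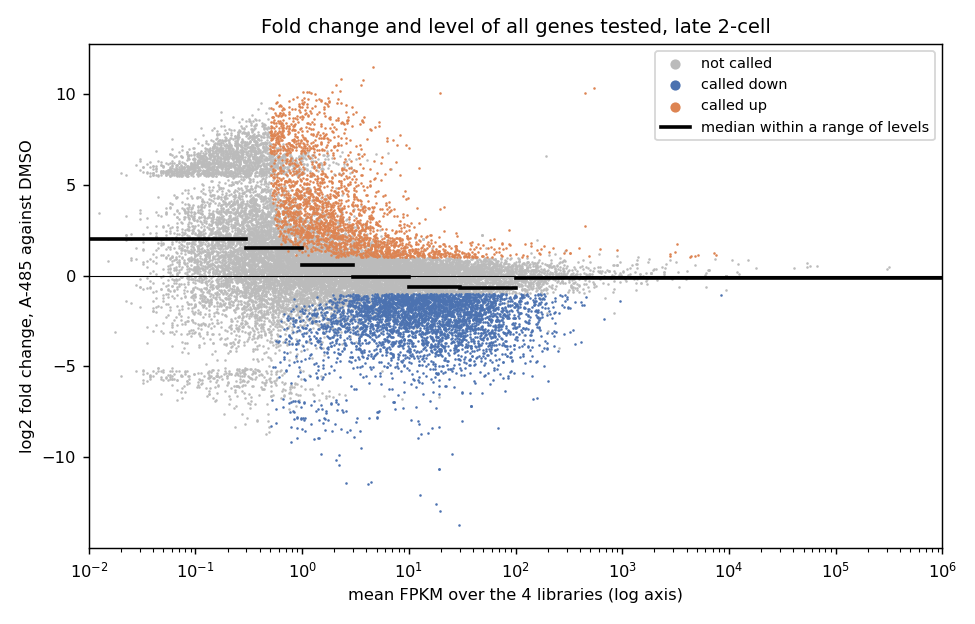
Each point is a gene tested in late 2-cell embryos, with its mean FPKM over the 4 libraries on a log axis and its log2 fold change, A-485 against DMSO, on the vertical axis. Black bars give the median log2 fold change of each range of levels, from 2.01 below 0.3 FPKM to −0.66 between 30 and 100 FPKM.

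Fold changes were fitted to counts, while FPKM also depend on the gene length that RSEM took in each library. Over 13816 genes of 1 FPKM or more the log2 ratio of mean FPKM lay a median of 0.21 above the fold change from counts, and 14 of 333 candidates for naming lay more than 1 from that median, among them Cad and Pdxk. Fold changes also depend on the scale. With the main scaling (TMM, trimmed mean of M values) the median gene tested stood at 0.28 on the log2 scale. It stood at 0.34 with DESeq2 size factors, at 0.47 with total counts and at −0.69 when libraries were scaled on their mitochondrially encoded mRNAs. With that last scaling 6874 genes were called lower and 1177 higher, against 3824 and 2406. Rescaling shifts all genes by nearly the same amount, so a median near 0 can change its sign. Of the 49 functional lists, 36 kept the sign of their median under all 4 scalings. The median of each of the others is given with the scaling that turned it. Some lists had 0 genes called higher. At an unadjusted p under 0.05 edgeR still placed 0 genes of ribosome biogenesis and of polyamine metabolism higher, 1 each of the ribosomal proteins and tRNA synthetases, 2 each of the 2-cell families and histone acetyltransferases, 4 of replication, and 5 each of nucleotide synthesis and antioxidant defence. DESeq2 called 0 higher in all of these lists but antioxidant defence, where it called 1. Without DMSO replicate 1, 1 ribosomal protein gene was called higher, and 1 gene of the 2-cell families was without any one of the other 3 libraries.

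The 12 genes that fell furthest, among named protein-coding genes with at least 10 FPKM in DMSO, were almost silent after A-485. Sardh, a mitochondrial sarcosine dehydrogenase (chr2:27188393-27248337), had 0.03 and 0.02 FPKM after A-485 and 25.3 and 26.1 FPKM after DMSO. Its counts were 1 in each A-485 library and 617 and 623 in the DMSO libraries, a ratio of 472 with a counting interval from 130.3 to 3901. Stmn3, a stathmin that binds tubulin (chr2:181306459-181314500), had 0.08 and 0.07 FPKM against 27.9 and 32.3, a ratio of counts of 450.2 (124 to 3721). Both genes were at a single count in each A-485 library, and their groups did not overlap. Alppl2, an alkaline phosphatase anchored in the plasma membrane (chr1:87086694-87089928), was the most abundant of the 12. It had 0.62 and 0.46 FPKM after A-485 and 124 and 151 FPKM after DMSO and fell by 8.40 on the log2 scale (SE 0.20, adjusted p 1.34e-09).

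Enzymes made up much of the rest of this group. Pdxk, which makes the active form of vitamin B6, had 0.06 and 0.45 FPKM against 21.6 and 28.01 and fell by 8.19 (log2, SE 0.30). Coq4, needed for coenzyme Q, had 0.37 and 0.15 FPKM against 18.6 and 43.8, with DMSO libraries that themselves differed more than 2-fold. Impdh1, an enzyme of guanine nucleotide synthesis, had 0.33 and 0.87 FPKM against 36.5 and 39.5 and fell by 6.49 (log2, SE 0.43). In all 3 the A-485 libraries were below 1 FPKM and the groups were far apart. Exoc3l2, a relative of an exocyst subunit, went from 71.3 and 80.4 FPKM in DMSO to 0.76 and 0.51 after A-485. Ccdc137 went from 94.5 and 99.2 FPKM to 0.62 and 0.54, the second highest DMSO level of the 12. Mmp19, a matrix metalloproteinase, had 0.21 and 0.15 FPKM against 15.2 and 15.9, and Kcnk6, a 2-pore potassium channel, 0.10 and 0.16 against 15.2 and 12.99. Ifi35, an interferon-induced gene, had 1 and 2 counts after A-485 and 391 and 299 after DMSO, a ratio of 175 (59.6 to 851). Pramel4, of a gene family with many near-identical copies, had 0 and 0.26 FPKM against 35.2 and 41.2, and its count is uncertain because its reads may fit other copies. All 12 normally rise at least 4-fold from zygote to late 2-cell in DMSO embryos of another experiment in the series, as did 48.4% of all genes called lower, and the 12 had been picked for their level in DMSO. Sardh, Alppl2, Pdxk, Ifi35, Exoc3l2, Coq4 and Mmp19 overlap other annotated genes, and whether the counting used strand was not given in the sources used here.

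The 12 genes that rose furthest started from nearly nothing. Spaca6, known for a sperm membrane protein (chr17:17827158-17843009), had 10.7 and 17.5 FPKM after A-485 and 0.23 and 0 FPKM after DMSO. Its counts were 195 and 246 against 3 and 0, a ratio of 193 (65.7 to 940.2), and the gene spans a cluster of microRNAs. Pdgfra, a growth factor receptor of mesenchyme and primitive endoderm (chr5:75152292-75198215), had 13.9 and 15.9 FPKM against 0.08 and 0.54 and rose by 6.27 (log2, SE 0.31, adjusted p 2.56e-08). Sox17, a transcription factor of endoderm (chr1:4490931-4497354), had 9.58 and 12.1 FPKM against 0 and 0.18 and rose by 6.17 (SE 0.79). In each of these the A-485 libraries were well above both DMSO libraries.

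Pax6, Bcl11a and Nr4a2, which encode transcription factors, were in the same group. Pax6, a master regulator of eye and brain (chr2:105668900-105697364), reached 42.4 and 36.5 FPKM after A-485 against 2.69 and 2.86 in DMSO, the highest A-485 level of the 12. Bcl11a, a zinc finger repressor, had 11.3 and 10.3 FPKM against 0.10 and 0.35, and Nr4a2, an orphan nuclear receptor of dopamine neurons, 18.8 and 19.5 against 0.44 and 0.47. Shisa2, an inhibitor of Wnt and Fgf receptors, had 12.9 and 11.97 FPKM against 0.36 and 0.62. These 4 genes rose by 4.27 (Nr4a2), 5.25 (Bcl11a), 4.02 (Shisa2) and 3.75 (Pax6) on the log2 scale. The others were of mixed function. Ahnak, a giant scaffold protein, had 17.5 and 16.2 FPKM against 0.66 and 0.57, and Lgals4, a galectin of the gut, 11.2 and 11.1 against 0.29 and 0.30. Zswim9 had 16.1 and 15.9 FPKM against 0.40 and 0.26, and Ccl25, a chemokine of thymus and gut, 25.1 and 19.2 against 2.44 and 1.25. Ank2, an ankyrin, had 19.01 and 4.32 FPKM after A-485 and 1.20 and 0.02 FPKM after DMSO, a wide spread within both groups although they did not overlap. Spaca6, Pdgfra, Sox17, Zswim9, Bcl11a, Ank2, Pax6 and Ccl25 overlap other annotated genes.

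**Figure D2:**
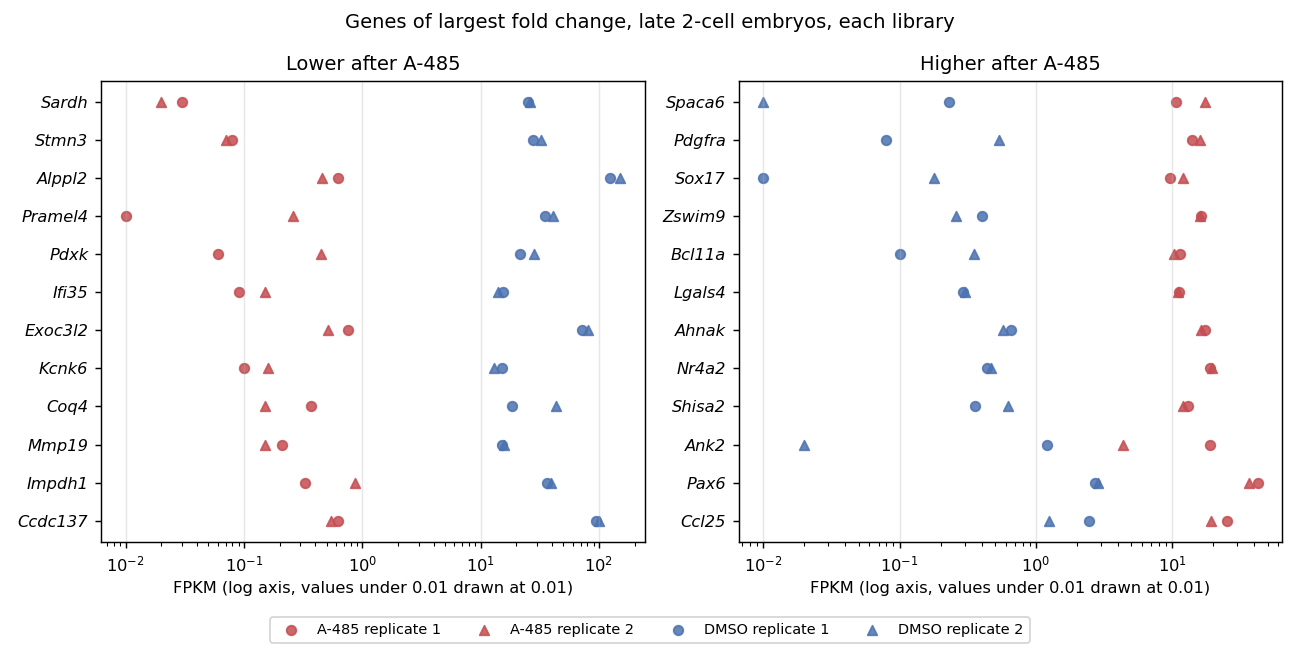
FPKM on a log axis in each of the 4 late 2-cell libraries for the 12 genes called lower (left) and the 12 called higher (right) with the largest fold changes. Red symbols are A-485 libraries and blue symbols DMSO libraries, circles replicate 1 and triangles replicate 2, and the genes were chosen among those whose 2 colours do not overlap.

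RNAs for ribosome biogenesis were lowered almost throughout. Of 125 genes for nucleolar proteins that process pre-rRNA and assemble the subunits, 116 fell, 0 rose and 9 were not called. That is 92.8% against the 26.4% of all genes of 1 FPKM or more, and the median log2 fold change of −2.75 lay −3.03 from that of all genes tested. These genes took 0.340% and 0.324% of all counts in the A-485 libraries and 1.42% and 1.40% in the DMSO libraries. Znhit3, a zinc finger protein of the snoRNP assembly machinery (chr11:84910950-84916366), had 1.68 and 2.88 FPKM after A-485 and 87.5 and 71.5 FPKM after DMSO. It fell by 5.78 (log2, SE 0.32, adjusted p 5.99e-08). Noc2l, a nucleolar complex protein (chr4:156236010-156247616), had 1.08 and 2.06 FPKM against 52.6 and 66.1 and fell by 5.46 (SE 0.28). Znhit6, another snoRNP factor, had 0.86 and 7.31 FPKM against 116 and 84.05, and its A-485 libraries differed widely from each other while staying far below DMSO. The highest of the 9 genes without a call were Rsl1d1, at 158 and 151 FPKM against 215 and 209, and the kinase Riok1, at 68.1 and 69.3 against 80.5 and 80.5. Their log2 fold changes of −0.72 and −0.49 fell short of the 2-fold cutoff.

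The RNAs for proteins of the ribosome itself fell as evenly. Of 83 genes for cytosolic ribosomal proteins, 79 fell, 0 rose and 4 were not called, with a median log2 fold change of −2.77. Their FPKM summed to 2467 and 2136 after A-485 and to 12069 and 12546 after DMSO, and their share of all counts was 0.118% and 0.105% against 0.549% and 0.580%. Rps15, of the small subunit (chr10:80292453-80294114), had 3.49 and 5.33 FPKM against 128 and 131 and fell by 5.13 (log2, SE 0.31, adjusted p 1.14e-07). Rps27 had 1.88 and 5.59 FPKM against 108 and 145, and Rpl10l, a retrogene copy of Rpl10 best known from testis, 8.00 and 4.96 against 156 and 113. Rpl5, which binds 5S rRNA, and Rps27l were the most abundant of the 4 genes with no call. Rpl5 had 53.6 and 69.01 FPKM against 80.2 and 54.4 and Rps27l 132 and 87.5 against 101 and 113, with groups that overlapped in both. Ribosomal protein genes have many processed pseudogenes, but none of the 79 calls rested on a count that RSEM marked as uncertain.

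The promoters of these genes are shown because so many of them moved together. The bases before the start were taken from RefSeq (GRCm38.p6), 250 a gene, for the genes that fell furthest in each list and hold a given motif there. Capitals mark CCGGAAG, the core bound by ETS factors, CACGTG, an E-box, and CCAAT, each read on both strands, where CTTCCGG and ATTGG are the other-strand forms. The motifs and genes were chosen with the results known. Ddx54 (chr5:120612880-120613129, + strand), Nop2 (chr6:125131633-125131882, + strand), Wdr46 (chr17:33940473-33940722, + strand) and Nhp2 (chr11:51619523-51619772, + strand) belong to ribosome biogenesis, and Rpl19 (chr11:98026460-98026709, + strand) and Rps26 (chr10:128626507-128626756, − strand) to the ribosomal proteins.
Ddx54: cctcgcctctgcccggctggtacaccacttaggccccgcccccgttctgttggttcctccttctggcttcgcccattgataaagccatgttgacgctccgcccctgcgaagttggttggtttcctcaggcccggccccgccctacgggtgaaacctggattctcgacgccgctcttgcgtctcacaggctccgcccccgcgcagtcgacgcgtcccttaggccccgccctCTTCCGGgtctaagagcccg
Nop2: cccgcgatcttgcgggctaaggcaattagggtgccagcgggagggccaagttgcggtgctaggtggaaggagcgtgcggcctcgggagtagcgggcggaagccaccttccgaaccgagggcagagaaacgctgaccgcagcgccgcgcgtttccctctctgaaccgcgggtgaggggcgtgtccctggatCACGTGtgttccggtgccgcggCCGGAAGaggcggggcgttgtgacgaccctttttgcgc
Wdr46: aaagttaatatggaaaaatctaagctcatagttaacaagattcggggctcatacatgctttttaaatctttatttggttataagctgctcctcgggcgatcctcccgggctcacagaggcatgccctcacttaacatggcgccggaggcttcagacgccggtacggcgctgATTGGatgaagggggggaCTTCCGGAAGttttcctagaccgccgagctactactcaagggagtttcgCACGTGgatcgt
Nhp2: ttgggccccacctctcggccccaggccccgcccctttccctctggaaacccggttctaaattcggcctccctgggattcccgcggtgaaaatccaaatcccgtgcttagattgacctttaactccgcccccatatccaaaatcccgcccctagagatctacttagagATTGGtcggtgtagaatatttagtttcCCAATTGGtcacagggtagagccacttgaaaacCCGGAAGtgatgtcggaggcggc
Rpl19: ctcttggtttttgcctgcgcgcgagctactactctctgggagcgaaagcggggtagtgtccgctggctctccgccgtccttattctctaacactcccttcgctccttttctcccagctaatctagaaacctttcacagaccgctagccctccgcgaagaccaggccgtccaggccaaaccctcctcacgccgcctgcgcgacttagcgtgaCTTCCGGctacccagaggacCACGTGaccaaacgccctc
Rps26: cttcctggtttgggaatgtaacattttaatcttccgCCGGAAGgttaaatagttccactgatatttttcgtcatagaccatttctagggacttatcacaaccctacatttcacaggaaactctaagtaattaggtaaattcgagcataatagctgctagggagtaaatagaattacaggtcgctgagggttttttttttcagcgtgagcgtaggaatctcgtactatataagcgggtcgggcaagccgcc

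CCGGAAG was found in 29.8% of 124 ribosome biogenesis promoters and in 25.7% of 74 ribosomal protein promoters, against 6.91% of all 32851 promoters in the table. The share was similar in lists that fell less completely, 35.2% for replication, 32.6% for the proteasome and 24.0% for mitochondrial ribosomal proteins, and it was 20.0% for the X-linked testis and Rhox genes, none of which fell. Over genes of 1 FPKM or more it was in 18.3% of promoters of genes called lower, in 12.4% of those not called and in 8.71% of those called higher. The E-box was in 20.3% of 64 translation factor promoters, 20.0% of cholesterol synthesis and 19.0% of autophagy and lysosome promoters, 8.06% of ribosome biogenesis promoters and 6.02% of all. These are counts of letters in a window and do not show that a factor bound. Ddx54, a nucleolar helicase, had 1.89 and 1.68 FPKM after A-485 and 45.5 and 53.5 after DMSO, and Nop2, an rRNA methyltransferase, had 4.98 and 3.37 against 64.5 and 76.7. Wdr46, a scaffold of the small subunit processome, had 0.86 and 0.54 FPKM against 17.8 and 16.7, and Nhp2, a protein of H/ACA snoRNPs, 6.02 and 4.77 against 136 and 126. Rpl19 had 14.7 and 8.07 FPKM against 145 and 187, and Rps26 32.5 and 32.4 against 343 and 371. In all 6 the groups did not overlap, and log2 fold changes ran from −5.11 to −3.71.

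**Figure D3:**
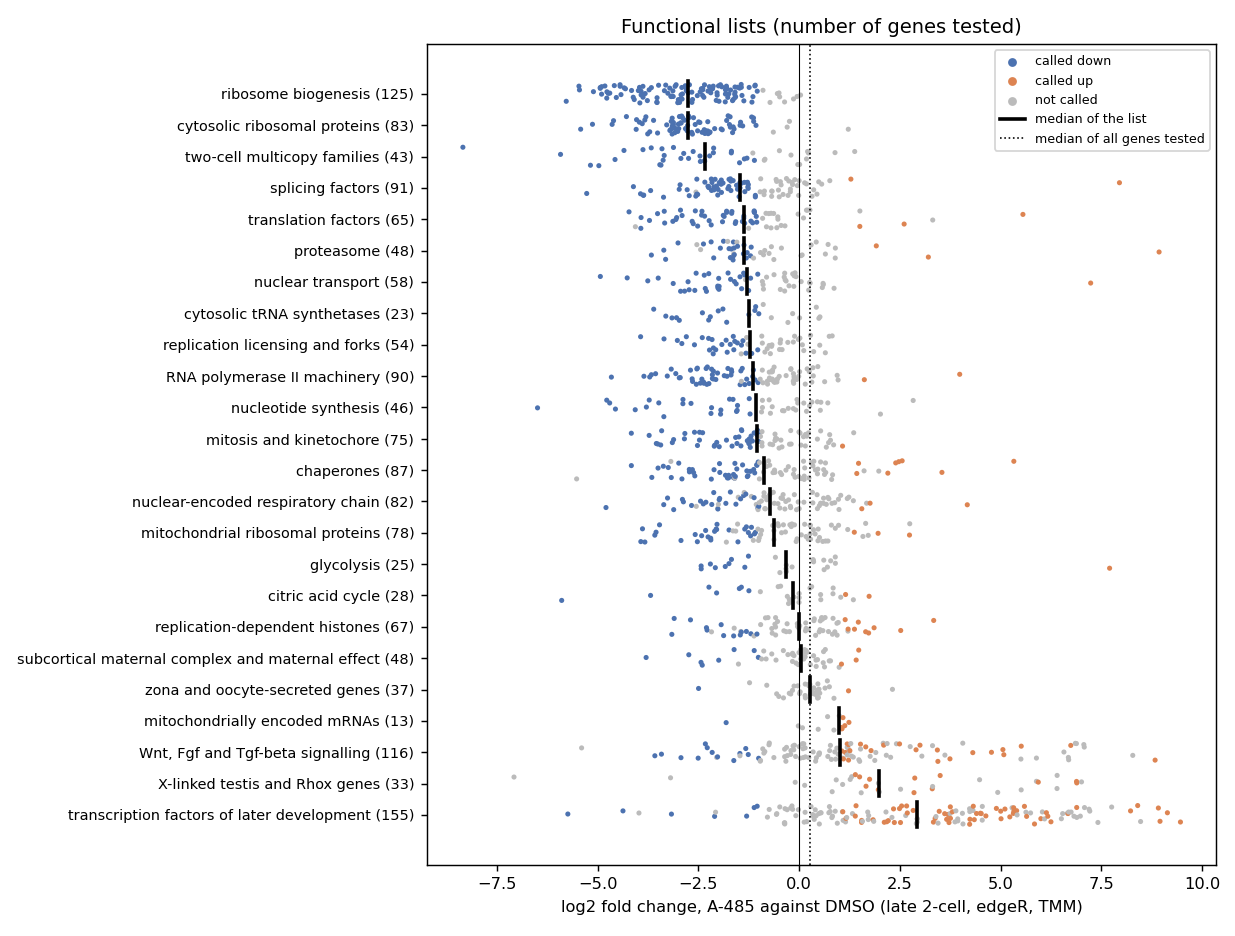
Each point is a gene tested, placed at its log2 fold change, A-485 against DMSO, in one of 24 functional lists with the number of genes tested in brackets. Blue points fell, orange points rose, grey points were not called, black bars are list medians and the dotted line is the median of all genes tested at 0.28. The 3 uppermost lists have medians below −2 and the lowermost list has a median of 2.93.

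Other steps of protein and RNA synthesis fell less completely. The shares lower were 63.1% of translation factors and 65.2% of tRNA synthetases, against 26.4% of all genes of 1 FPKM or more. For all genes of 10 to 30 FPKM the share was 41.3%, and from 30 to 100 FPKM 42.3%. Of 65 translation factor genes 41 fell and 3 rose (median −1.38), and of 23 cytosolic tRNA synthetases 15 fell and 0 rose (median −1.25). Eif3g and Eif3c, subunits of the initiation factor that gathers the small subunit and mRNA, had 3.31 and 6.04 FPKM against 64.5 and 60.8 and 23.9 and 19.04 against 214 and 172. Eif2b4, of the exchange factor that recharges eIF2, had 6.50 and 3.31 FPKM against 60.8 and 63.2. These 3 fell by 4.22, 3.92 and 3.93 on the log2 scale. By contrast Eif4e1b, an oocyte form of the cap-binding protein, had 599 and 611 FPKM after A-485 and 180.2 and 189.8 after DMSO and rose by 1.50 (SE 0.11). Eif5a2 rose from 0.80 and 0.66 to 5.04 and 5.16 FPKM. The abundant Eif5 and Eif5a did not reach the cutoff, with log2 fold changes of −0.70 and −0.53. Among the synthetases, Rars, for arginine, had 6.45 and 6.99 FPKM against 60.7 and 56.2, Mars, for methionine, 1.43 and 1.75 against 17.5 and 13.02, and Hars, for histidine, 1.40 and 2.96 against 15.8 and 12.4. Gars and Farsb had no call, at 15.7 and 12.3 FPKM against 20.2 and 18.8 and 27.9 and 23.9 against 16.3 and 15.3.

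Of 90 genes of the RNA polymerase II machinery, 47 (52.2%) fell and 2 rose (median −1.14). Of 91 splicing factors 55 (60.4%) fell and 2 rose, or 1 without either A-485 replicate (median −1.47). The share lower was 26.4% of all genes of 1 FPKM or more, 41.3% from 10 to 30 FPKM and 42.3% from 30 to 100. Med29, a Mediator subunit, had 6.06 and 3.95 FPKM against 106 and 112, and Gtf2f1, a subunit of TFIIF, 10.9 and 12.7 against 159 and 136. Nelfe, of the factor that holds paused polymerase, had 1.62 and 3.04 FPKM against 15.6 and 33.7. Taf9b rose instead, from 11.7 and 12.8 to 47.9 and 37.5 FPKM, and Polr2c and Gtf2a1 had log2 fold changes of −0.06 and 0.01. Snrnp35, of the minor spliceosome, had 1.74 and 1.11 FPKM against 50.9 and 47.4, and Snrpc, of U1, 11.2 and 12.4 against 259 and 245. Snrpa1, of U2, had 3.76 and 6.03 FPKM against 56.9 and 48.01, so members of 3 different snRNPs fell. Lsm3 rose, from 16.1 and 14.6 to 35.97 and 25.1 FPKM. Of 17 snoRNA host genes 4 fell (1 without DMSO replicate 2) and 1 rose (0 without A-485 replicate 2 or DMSO replicate 1). The share that fell, 23.5%, was below the 26.4% of all genes of 1 FPKM or more. Snhg15 had 6.06 and 2.06 FPKM against 50.04 and 62.9, while Snhg1 and Snhg5 had overlapping groups.

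Of 58 nuclear transport genes 31 (53.4%) fell and 1 rose, or 2 without A-485 replicate 2 (median −1.29). The share lower was 26.4% of all genes of 1 FPKM or more and 41.3% of those of 10 to 30 FPKM. The importins Ipo4 and Tnpo3 had 5.14 and 4.23 FPKM against 62.6 and 73.6 and 5.78 and 6.54 against 87.7 and 101, and fell by 4.93 and 4.27 on the log2 scale. Rangap1, which drives the Ran cycle, had 2.84 and 4.75 FPKM against 34.1 and 33.4. The pore protein Nup214 and the importin Ipo8 had no call, at −0.08 and 0.27.

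RNAs of protein turnover were lowered in part. The shares that fell were 50.0% of proteasome genes, 42.5% of chaperones and 37.5% of autophagy and lysosome genes. Of all genes of 1 FPKM or more 26.4% fell, and of those of 10 to 30 FPKM 41.3%. Of 48 proteasome genes 24 fell and 3 rose, or 1 without DMSO replicate 2 (median −1.38). Psmb5, which carries the chymotrypsin-like site, had 1.69 and 1.48 FPKM against 10.4 and 15.1, Psmb1 5.08 and 4.08 against 37.1 and 40.4, and the deubiquitinase Psmd14 8.67 and 7.13 against 37.5 and 22.3. Psme4 and Psme3, proteasome activators, had log2 fold changes of 0.07 and 0.30. Of 87 chaperones and cochaperones 37 fell and 8 rose (median −0.86), led by Bag5 at 8.60 and 5.37 FPKM against 119 and 95.9 and Bag1 at 9.15 and 12.4 against 112 and 112. Hspb8, a small heat shock protein, rose from 0.21 and 0 to 7.44 and 3.97 FPKM. Of 72 autophagy and lysosome genes 27 fell and 4 rose, or 2 without DMSO replicate 1 (median −0.43). The lysosomal enzyme Ctsa had 1.58 and 3.47 FPKM against 28.1 and 33.8, and Gabarapl2, which coats autophagosomes, 6.22 and 6.60 against 62.3 and 77.5. The proton pump subunit Atp6v1f rose, from 3.02 and 3.00 to 17.8 and 14.4 FPKM.

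Of the metabolic lists nucleotide synthesis had the largest share of genes that fell, 50.0%, against 26.4% of all genes of 1 FPKM or more. That share was 41.3% for all genes of 10 to 30 FPKM and 42.3% from 30 to 100. The part that level played was not tested. Of the 46 genes of nucleotide synthesis 23 fell and 0 rose (median −1.08). Cad, which starts pyrimidine synthesis, had 3.80 and 0.70 FPKM after A-485 and 19.1 and 16.2 after DMSO and fell by 4.78 (log2, SE 0.27) by counts, against a log2 ratio of −2.97 by mean FPKM. Nme2, a nucleoside diphosphate kinase, had 0.29 and 4.18 FPKM against 34.4 and 52.5, a count RSEM marked as uncertain. Mthfd2, of the mitochondrial folate pathway, stood at 135 and 115 FPKM against 71.6 and 78.8 and Rrm2b, a ribonucleotide reductase subunit, at 182 and 179.8 against 123 and 122, both without a call. Polyamine and cholesterol synthesis, with 26.3% and 28.0% of genes lower, were close to the 26.4%. Of 19 genes of polyamine and methionine metabolism 5 fell and 0 rose (median −0.56). Odc1, the first enzyme of polyamine synthesis (chr12:17544794-17551505), had 26.97 and 32.97 FPKM against 224 and 258 and fell by 3.53 (SE 0.13), and Mat2a, which makes S-adenosylmethionine, had 16.2 and 15.2 against 108 and 84.4. Its regulatory partner Mat2b had 170.2 and 172 FPKM against 159 and 179, with overlapping groups. Of 25 cholesterol synthesis genes 7 fell and 2 rose, or 1 without either A-485 replicate. Sqle fell from 46.8 and 53.02 to 16.98 and 14.99 FPKM and Mvk, of the mevalonate step, from 12.5 and 13.8 to 2.33 and 1.72.

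Energy metabolism moved less. Of 82 nuclear genes of the respiratory chain 24 fell, 3 rose and the median was −0.72, and of 78 mitochondrial ribosomal protein genes 27 fell and 3 rose, or 1 without DMSO replicate 1 (median −0.63). The share of the respiratory chain that fell, 29.3%, was close to the 26.4% of all genes of 1 FPKM or more. It was 34.6% for mitochondrial ribosomal proteins, 36.0% for glycolysis and 25.0% for the citric acid cycle. Ndufs8, of complex I, had 0.40 and 1.13 FPKM against 18.99 and 21.02, and Cox4i1, of complex IV, 3.17 and 7.28 against 34.9 and 30, while Cox8a, another complex IV subunit, stood at 287 and 244 against 121 and 174. Mrpl20 and Mrpl12 fell, from 38.2 and 40.4 to 2.46 and 4.08 FPKM and from 25.98 and 27.1 to 2.83 and 2.53, and Mrps35 rose from 2.95 and 2.12 to 13.2 and 16.2. Of 25 glycolysis genes 9 fell and 1 rose, or 2 without DMSO replicate 1 (median −0.32). Those that fell included the lactate and pyruvate carrier Slc16a1, at 6.30 and 4.31 FPKM against 27.8 and 22.02, and Pgk1, at 5.05 and 5.40 against 19.3 and 22.2. Of 28 genes of the citric acid cycle 7 fell and 2 rose (1 without A-485 replicate 1 or DMSO replicate 2), with a median of −0.15 that was above 0 with total counts. Idh3g and Mdh2 fell, from 27.2 and 24.98 to 3.30 and 3.30 FPKM and from 72.2 and 66.3 to 20.8 and 23.1, while citrate synthase (Cs) had 77.2 and 65.98 against 58.98 and 66.2.

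Of the 13 mRNAs that the mitochondrial genome encodes, 6 rose (3 without DMSO replicate 2) and 1 fell (2 without A-485 replicate 1), with a median log2 fold change of 0.99 that was 0.03 when the libraries were scaled on these RNAs themselves. mt-Nd1 had 10406 and 10593 FPKM after A-485 and 3877 and 3785 after DMSO, and rose by 1.23 (SE 0.07). mt-Nd3 had 7847 and 7234 FPKM against 2635 and 2871. Both A-485 libraries lay above both DMSO libraries in these 2 genes, and mt-Cytb, at 0.86, did not reach the cutoff. mt-Co2 fell, to 173 and 31.6 FPKM from 270.0 and 336, on a count that RSEM marked as uncertain and with no call by DESeq2. The most abundant RNAs were noncoding. Rn7s1 and Rn7s2, the RNA of the signal recognition particle, had log2 fold changes of 0.45 and 0.33, Rn7sk, which restrains the elongation factor P-TEFb, had 0.53, and the mitochondrial rRNAs mt-Rnr2 and mt-Rnr1 0.54 and 0.46. The FPKM of mt-Atp8, 75483 and 73723 against 32146 and 32781, is inflated by its short length.

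In the cell cycle lists 48.1% of replication genes and 56% of mitosis genes fell, against 26.4% of all genes of 1 FPKM or more. The share lower was 41.3% for all genes of 10 to 30 FPKM and 42.3% from 30 to 100. The part that level played was not tested. Of 54 genes of replication licensing and forks 26 fell and 0 rose (median −1.23), and of 75 genes of mitosis and the kinetochore 42 fell and 1 rose, or 2 without A-485 replicate 2 (median −1.04). Cdc45 and Gins3, parts of the replicative helicase, had 7.07 and 7.73 FPKM against 52.02 and 61.03 and 1.28 and 0.46 against 12.5 and 11.97, and the licensing factor Cdt1 11.98 and 9.05 against 58.6 and 57.2. Dbf4 and Orc2, at 575 and 568 FPKM against 473 and 470.1 and 232 and 172 against 62.2 and 121, had no call. Cdc20, the activator of the anaphase-promoting complex (chr4:118432901-118437352), had 5.00 and 5.38 FPKM against 58.6 and 71.9 and fell by 4.17 (log2, SE 0.23). Incenp, of the chromosomal passenger complex, had 12.6 and 10.8 FPKM against 81.4 and 95.1. Wee2, an oocyte kinase that restrains Cdk1, stood at 374 and 344 FPKM against 173 and 191 with no call, and Cdc25b rose from 5.82 and 8.01 to 18.02 and 20.8.

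Regulators of G1 went both ways. Of 34 G1 cyclins and inhibitors 6 fell and 12 rose, and their median of 0.28 turned to −0.70 with mitochondrial scaling. That is 17.6% lower and 35.3% higher, against 26.4% and 12.5% of all genes of 1 FPKM or more. Ccne1, the cyclin that drives entry into S phase (chr7:38097984-38107534), had 42.6 and 41.1 FPKM against 315 and 294 and fell by 3.32 (SE 0.12), and its partner Cdk2 had 7.59 and 6.54 against 26.9 and 31.9. The inhibitor gene Cdkn2a rose from 0.25 and 1.20 to 6.16 and 5.39 FPKM, although its adjusted p was no longer under 0.05 without DMSO replicate 1. E2f6 rose from 1.76 and 1.07 to 12.1 and 9.71 FPKM, and Mycl, a relative of Myc, from 0.94 and 0.69 to 8.56 and 2.17. The abundant E2f4 and Tfdp1 had log2 fold changes of 0.32 and 0.02. Of 70 DNA repair genes 22 (31.4%) fell and 3 rose, or 5 without A-485 replicate 2 (median −0.44), near the 26.4% lower among all genes of 1 FPKM or more. Parp1 fell from 25.5 and 31.8 to 4.76 and 6.24 FPKM and Ercc2 from 10.8 and 10.8 to 1.10 and 0.38, while H2afx stood at 141 and 119 against 91.2 and 126.

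In the lists of stress and death genes between 25.0% and 36.4% of members fell, against 26.4% of all genes of 1 FPKM or more. Of 28 p53 targets and regulators 10 fell and 3 rose, of 33 genes of the integrated stress response 12 fell and 7 rose, and of 36 apoptosis genes 11 fell and 4 rose, or 2 without A-485 replicate 1. Sesn2, a stress sensor on 2 of these lists, had 5.72 and 5.73 FPKM against 85.3 and 119.7 and fell by 4.35 (log2, SE 0.17). Ppp1r15a, which ends the stress response by removing phosphate from eIF2, had 28.9 and 23.8 FPKM against 235 and 259, and Trib3 4.92 and 0.52 against 22.5 and 25.5. Xbp1 rose, from 0.38 and 0.34 to 5.69 and 6.30 FPKM. The p53 regulator Mdm4 stood at 745 and 729 FPKM against 591 and 642 and Ccng1, a p53 target, rose from 4.03 and 4.38 to 9.84 and 10.3. Among apoptosis genes Mcl1, a protector of mitochondria, fell from 59.4 and 62.2 to 12.1 and 12.8 FPKM and Bcl2l14 from 15.9 and 19.02 to 0.58 and 0.73, while Casp2 rose by 1.16. Bcl2l10 and Birc5, which counter apoptosis, had log2 fold changes of 0.28 and 0.04. Of 36 genes of antioxidant defence 9 fell and 0 rose (2 without A-485 replicate 2 or DMSO replicate 2), led by the metallothionein Mt1 at 25 and 19.98 FPKM against 365 and 384, with a median of −0.11 that was above 0 with total counts.

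Genes that mark the 2-cell stage were counted as a list of multicopy families, such as Obox, Zscan4 and Pramel. Of 43 such genes 31 fell and 0 rose, with a median log2 fold change of −2.35, and 4 of the calls rest on counts that RSEM marked as uncertain. Obox3, a homeobox gene of the Obox cluster (chr7:15479825-15639902, − strand), had 5.36 and 3.51 FPKM after A-485 and 133 and 110.1 after DMSO and fell by 5.18 (log2, SE 0.21). Obox8 had 1.84 and 1.26 FPKM against 66.6 and 95.7. Obox5 and Obox1, which are also present in the oocyte, stood at 130.3 and 177 FPKM against 207 and 210.4 and 97.04 and 124 against 81.1 and 76.5, with no call, so members of 1 cluster differed in their calls. Zscan4d, a marker of the 2-cell embryo, had 5.49 and 2.07 FPKM against 15.5 and 17.8, and Zfp352, another such marker, 19.3 and 13.5 against 60.2 and 60.0. Promoters of 2 genes of these families are shown next to those of 2 genes that rose, with CCAAT in capitals as above. Pramel4 (chr4:144058875-144059124, + strand) and Obox3 (chr7:15639778-15640027, − strand) fell, and Sox1 (chr8:12395269-12395518, + strand) and Sox11 (chr12:27342719-27342968, − strand) rose.
Pramel4: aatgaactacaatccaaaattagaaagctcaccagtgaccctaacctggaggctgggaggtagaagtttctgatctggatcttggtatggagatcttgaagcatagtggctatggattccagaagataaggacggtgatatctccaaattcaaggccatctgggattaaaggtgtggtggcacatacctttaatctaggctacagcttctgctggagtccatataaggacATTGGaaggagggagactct
Obox3: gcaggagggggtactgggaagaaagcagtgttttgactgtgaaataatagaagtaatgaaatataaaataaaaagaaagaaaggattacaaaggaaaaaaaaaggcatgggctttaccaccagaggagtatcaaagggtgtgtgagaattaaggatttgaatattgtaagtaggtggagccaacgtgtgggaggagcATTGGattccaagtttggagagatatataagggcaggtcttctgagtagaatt
Sox1: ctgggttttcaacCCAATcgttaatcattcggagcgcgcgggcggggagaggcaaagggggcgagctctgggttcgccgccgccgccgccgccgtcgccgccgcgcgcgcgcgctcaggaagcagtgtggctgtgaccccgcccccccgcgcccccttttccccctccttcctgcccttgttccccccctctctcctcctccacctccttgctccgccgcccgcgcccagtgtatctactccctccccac
Sox11: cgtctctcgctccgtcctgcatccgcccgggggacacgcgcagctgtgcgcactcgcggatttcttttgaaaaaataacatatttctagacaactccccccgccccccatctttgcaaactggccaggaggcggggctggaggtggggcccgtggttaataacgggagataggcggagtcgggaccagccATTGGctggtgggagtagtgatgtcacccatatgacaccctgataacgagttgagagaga

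CCAAT on either strand was in 69.2% of the 26 promoters of these 2-cell families in the table, against 33.8% of all promoters, 72% of cholesterol synthesis promoters and 59.2% of mitosis promoters. Many of the 26 are near-identical copies and are not independent of each other. TATAAA was in 30.8% of them, 35.0% of olfactory receptor promoters and 12.4% of all. CCGGAAG was in 3.85% of them and in 0.820% of 122 promoters of the transcription factors of later development described below.

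Regulators of the first lineages moved both ways. Of 36 such genes 20 (55.6%) fell and 8 (22.2%) rose (median −1.27). Of all genes of 1 FPKM or more 26.4% fell and 12.5% rose. Tead4, needed for trophectoderm (chr6:128224288-128300823), had 0.05 and 0.39 FPKM against 7.43 and 11.3 and fell by 5.52 (log2, SE 0.54). Dppa4, of early pluripotent cells, had 12.1 and 21.6 FPKM against 199.7 and 178, and Esrrb, a nuclear receptor of the pluripotency network, 0.63 and 0.98 against 9.01 and 8.17. Gata4 fell, from 55.9 and 57.5 to 14.3 and 15.7 FPKM, whereas Gata6, its partner in primitive endoderm, rose from 0.49 and 0.24 to 5.32 and 9.55. Gata3 and Tfap2a, of trophectoderm, also rose, from 1.22 and 0.48 to 9.06 and 15.4 FPKM and from 1.17 and 2.09 to 12.6 and 8.12. Pou5f1 and Yap1, both abundant in the oocyte, stood at 185 and 199.8 FPKM against 112 and 129 and 445 and 440.3 against 396 and 426, with no call.

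RNAs stored by the oocyte stayed near the middle of the distribution. Of 48 genes of the subcortical maternal complex and other maternal-effect genes 8 fell and 3 rose, with a median of 0.04 that became −0.95 with mitochondrial scaling. Of 37 zona pellucida and oocyte-secreted genes 1 fell (up to 3 with 1 library left out) and 1 rose (3 without A-485 replicate 1 or DMSO replicate 2), with a median of 0.26 that became −0.73 on that scale. These medians differed from that of all genes tested by −0.24 and −0.02, but over the 48 and 33 members that averaged 1 FPKM or more they lay 0.15 and 0.39 above that of all genes of this level. The zona list summed to 2632 and 2537 FPKM after A-485 and 1544 and 1655 after DMSO. Zbed3 and Spin1, at 3272 and 3349 FPKM against 1781 and 1889.8 and 1048 and 1054 against 813 and 881, had no call. Tcl1, a coactivator of Akt, had 1551 and 1162 FPKM against 406 and 472 and rose by 1.41 (log2, SE 0.12), and Bmp15, a growth factor secreted by the oocyte, had 408 and 415 against 147 and 161 and rose by 1.22 (SE 0.09). In both genes the A-485 libraries lay above the DMSO libraries. Members that fell are not confined to the oocyte, such as Trim28, a corepressor for KRAB zinc finger proteins, at 28.4 and 16.8 FPKM against 175 and 169.9, Ctnnb1 (beta-catenin) at 33.5 and 24.2 against 87.5 and 93.9, and the tetraspanin Cd9 at 3.98 and 4.35 against 20.96 and 19.7. Of 70 genes that clear or bind maternal RNA 22 (31.4%) fell and 3 rose (median −0.27), near the 26.4% lower among all genes of 1 FPKM or more. Pabpc1, the poly(A)-binding protein, fell from 315 and 217 to 33.1 and 21.8 FPKM and the exosome subunits Exosc10 and Dis3 from 71.97 and 63.1 to 8.00 and 7.48 and from 80.4 and 61.4 to 8.45 and 9.57. The germ cell RNA-binding genes Ybx2 and Ybx3 rose, to 334 and 285 and 227 and 219 FPKM from 90.1 and 114 and 58.05 and 57.1, and Btg4, an adaptor for deadenylation, stood at 1124 and 1181 against 906 and 805.

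Between 19.4% and 47.6% of genes in the lists of chromatin proteins and histones fell, against 26.4% of all genes of 1 FPKM or more. Replication-dependent histones and DNA methylation, at 20.0%, lay below that share and histone deacetylases, at 30.2%, close to it. Of 21 histone acetyltransferases 10 fell and 0 rose (median −0.94), among them Ep300, described above, and Brpf1, at 6.79 and 6.89 FPKM against 26.4 and 30.9. Kat2b had 1.03 and 3.80 FPKM against 17.7 and 8.25, with a wide spread in both groups. Ncoa3 stood at 137 and 147 FPKM against 199.7 and 174, with no call. Of 43 genes of histone deacetylases and the NuRD complex 13 fell and 1 rose (median −0.57), with Hdac1 at 15.7 and 21.1 FPKM against 89.1 and 98.8, Sirt1 at 11.1 and 12.9 against 163 and 145 and the NuRD subunit Mta2 at 23.4 and 15.6 against 213 and 215. These 3 fell by 3.17, 3.89 and 4.33 on the log2 scale. Of 42 genes of Polycomb and H3K9 methylation 16 fell and 4 rose (median −0.66). The H3K9 methyltransferase Suv39h1 had 4.61 and 4.28 FPKM against 33.8 and 30.1, the Polycomb subunit Cbx8 rose from 0.37 and 0.35 to 5.87 and 5.35, and the core subunits Suz12 and Bmi1 had −0.10 and 0.40 on the log2 scale. Of 45 genes of remodelling complexes 19 fell and 2 rose, or 1 without DMSO replicate 2 (median −0.80), with Smarcc1, of the BAF complex, at 11.01 and 10.7 FPKM against 82.6 and 73.02.

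Dppa3, which protects maternal DNA methylation, was an abundant RNA that fell, from 1205 and 987 to 220.4 and 266 FPKM (log2 fold change −2.41, SE 0.14). It was 1 of 3 that fell among 15 DNA methylation genes, 2 of which rose, with a median of −0.19 that was above 0 with total counts. Tet1 fell from 31.3 and 18.3 to 6.56 and 5.68 FPKM, and Tet3, the main Tet enzyme of the zygote, stood at 88 and 83.02 against 95.7 and 96.4. Of 67 replication-dependent histone genes 13 fell and 9 rose, and the median of −0.01 was above 0 with DESeq2 size factors and with total counts. Hist2h2aa1 rose from 1263 and 1384 to 5773 and 4601 FPKM and the linker histone Hist1h1e from 1.91 and 2.58 to 11.1 and 7.60, while Hist2h2ab fell from 67.97 and 50.4 to 10.03 and 12.03. Histone genes are near-identical, and 4 of their calls rest on uncertain counts. Zinc finger genes with Zfp names, many of them KRAB repressors, were the largest list by genes tested. Of 376 genes 75 (19.9%) fell and 63 (16.8%) rose, with a median of 0.09 that was −0.88 with mitochondrial scaling. The share lower was also below the 26.4% of all genes of 1 FPKM or more, of which 12.5% rose. Over all genes tested 16.8% fell and 10.5% rose. Zfp707 fell from 93.5 and 103 to 2.17 and 2.71 FPKM and Zfp85 rose from 0.49 and 0.49 to 5.31 and 9.36.

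Genes of the cell surface and of signalling were split, as all genes were. Between 20% of transporters and 25.5% of junction genes fell, against 26.4% of all genes of 1 FPKM or more. From 7.81% of actin genes to 20% of transporters rose, against 12.5%. For growth factor and PI3K signalling 21.3% fell and 8.51% rose. Of 47 genes of tight and adherens junctions 12 fell and 7 rose (median 0.06, and −0.92 with mitochondrial scaling), of 64 genes of the actin cytoskeleton 14 fell and 5 rose (3 without DMSO replicate 2, median −0.09, above 0 with total counts), and of 30 amino acid and ion transporters 6 fell and 6 rose (median 0.41, and −0.57 with mitochondrial scaling). Epcam, an adhesion protein of epithelia, fell from 50.9 and 45.8 to 7.54 and 5.2 FPKM, and Arpc1a, of the Arp2/3 complex, from 22.96 and 24.5 to 1.34 and 1.08. The amino acid carriers Slc7a5 and Slc1a5 fell, to 3.26 and 6.14 and 1.19 and 0.71 FPKM from 40.03 and 35.9 and 12.7 and 16.99. Amotl2, a scaffold of the Hippo pathway, rose from 1.57 and 0.75 to 7.28 and 3.57 FPKM, Krt18, an intermediate filament, from 2.74 and 1.26 to 9.70 and 9.79, and Myl12a, a myosin light chain, from 5.30 and 3.36 to 26.4 and 24.02. Of 47 genes of growth factor and PI3K signalling 10 fell and 4 rose (median −0.15, above 0 with total counts). Map2k2, a kinase of the Erk cascade, fell from 51.5 and 48.7 to 1.83 and 4.02 FPKM, and Mapk3, an Erk kinase, rose from 18.5 and 19.1 to 75.6 and 56.8.

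Of 116 genes of Wnt, Fgf and Tgf-beta signalling 13 (11.2%) fell and 24 (20.7%) rose. Of all genes tested 16.8% fell and 10.5% rose, and 22.4% rose of those of 1 to 3 FPKM, the range with the highest share. The median log2 fold change of the list was 1.01 over all 116 and 0.15 over the 72 that averaged 1 FPKM or more. Lef1, a transcription factor of the Wnt pathway, had 144 and 156 FPKM after A-485 and 23.2 and 21.03 after DMSO and rose by 2.49 (SE 0.14, adjusted p 4.85e-08). Smad1, which carries Bmp signals, rose from 6.68 and 6.32 to 15.7 and 21.2 FPKM. Feedback inhibitors went opposite ways, with Smad7 at 10.2 and 7.29 FPKM against 92.4 and 89.5, Dusp5 at 1.88 and 1.84 against 24.3 and 14.2 and Dusp6 at 13.3 and 10.7 against 3.02 and 1.88. The Wnt receptor Fzd7 fell, from 28.2 and 28.8 to 4.72 and 3.85 FPKM, and the abundant Spry4 and Dusp7 had no call, at 0.76 and 0.11.

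The transcription factors of later development, a list of homeobox, forkhead, Sox, T-box, Gata and proneural genes, held many genes that rose. Of 155 tested, 60 rose and 7 fell, which is 38.7% against the background of 10.5%, or of 22.4% for genes of 1 to 3 FPKM, the range with the highest share. Their median log2 fold change was 2.93, and it was 2.83 with the 23 genes that had no count in 1 group set at the bound of 3 counts. Over the 74 that averaged 1 FPKM or more the median was 1.64. Pax6 and Sox17, described above, belong here. Dlx1, a homeobox gene of the forebrain (chr2:71528113-71533981), had 9.16 and 9.61 FPKM against 0.12 and 0.11 and rose by 5.33 (SE 0.43, adjusted p 1.16e-06). Dlx6, its relative in another cluster, had 99 and 74 counts against 2 and 0, a ratio of 114 (30.99 to 946). Sox1 and Sox11, of neural progenitors, had 5.17 and 6.51 FPKM against 0.43 and 0.09 and 7.60 and 9.23 against 0.27 and 0.84. In all 4 genes the DMSO libraries were below 1 FPKM and the A-485 libraries above 3. Members that fell were expressed in DMSO embryos, such as Gata1, the erythroid factor, at 0.09 and 0.63 FPKM against 23.5 and 20.3, Sox13 at 1.05 and 0.89 against 16.9 and 13.2, and Foxr1 at 2.34 and 5.84 against 66.5 and 60.4. The abundant Foxj3 and Foxn2 had log2 fold changes of −0.36 and −0.08. The FPKM of the whole list summed to 1391 and 1422 after A-485 and to 1456 and 1444 after DMSO, so the sum, which the abundant genes set, hardly moved.

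The share that rose varied among other lists of low level. It was 36.4% of X-linked testis and Rhox genes, 10.7% of ion channels, 13.1% of interferon genes and 2.52% of olfactory receptors, so all but the first were near or below the 10.5% of all genes. Of 150 ion channels and synaptic receptors 16 rose and 4 fell (median 1.03, and 0.07 with mitochondrial scaling), and of 33 X-linked testis and Rhox genes 12 rose and 0 fell (median 1.99), 3 of them on uncertain counts. By edgeR 1 X-linked gene was lower at an unadjusted p under 0.05, and DESeq2 called 0 lower. Grin2a, an NMDA receptor subunit (chr16:9567898-9995560), had 6.34 and 6.94 FPKM against 0.04 and 0.01, and the potassium channel gene Kcna1 15.4 and 12.9 against 1.15 and 1.49. Xlr3a, of an X-linked family with similar copies, rose from 8.56 and 21.7 to 60.1 and 62.9 FPKM. Of 159 olfactory and vomeronasal receptor genes 4 rose and 1 fell (up to 3 with 1 library left out) with a median of 1.89, but 66 of them had no count in 1 group and only 9 reached a mean FPKM of 1. Olfr288 had 14.6 and 10.1 FPKM against 3.27 and 4.56, and Olfr976 9.05 and 11.1 against 3.19 and 3.50. Of 61 interferon and innate immunity genes 8 rose, or 5 without A-485 replicate 1, and 4 fell (median 0.39, and −0.57 with mitochondrial scaling). Ddx58, the RNA sensor RIG-I, rose from 1.35 and 1.87 to 25.4 and 11.4 FPKM, and Stat2, which carries interferon signals, fell from 20.6 and 27.3 to 1.82 and 2.38.

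The early 2-cell stage was measured in 4 other libraries, 2 after A-485 and 2 after DMSO, with the same fit. Over 19485 genes tested at both stages, 8.41% were called lower and 0.421% higher at early 2-cell. Of the 3768 genes lower at late 2-cell and tested at both stages, 1222 (32.4%) were already lower at early 2-cell, which is 74.6% of all genes lower at early 2-cell. Of the 2182 genes higher at late 2-cell, 53 (2.43%) were already higher, 64.6% of all genes higher at early 2-cell, and 42 were lower at that stage. The stages share no library, but the same drug treatment came before both.

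The functional lists differed in how early they were lowered. The 2-cell families had a median log2 fold change of −4.99 at early 2-cell, with 32 of 43 genes called lower, and −2.35 at late 2-cell. Obox3 stood at −8.02 early and −5.18 late. Cytosolic ribosomal proteins had a median of −1.34 early, with 47 of 82 called lower, and −2.77 late, and ribosome biogenesis −0.69 early, with 44 of 125 called lower, and −2.75 late. Noc2l stood at −0.47 early and −5.46 late, and Nop2 at −3.90 and −4.94. Splicing factors, translation factors, the proteasome, nuclear transport and replication had early medians between −0.20 and −0.01 and late medians between −1.47 and −1.23. The transcription factors of later development had an early median of −0.19, with 17 of 134 called lower and 0 higher, and Sox17 stood at −3.80 early and 6.17 late. Among the 12 that rose furthest, Zswim9, Ahnak and Ccl25 were already called higher at early 2-cell, at 3.85, 2.13 and 1.51. The difference between the stages was not tested.

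**Figure D4:**
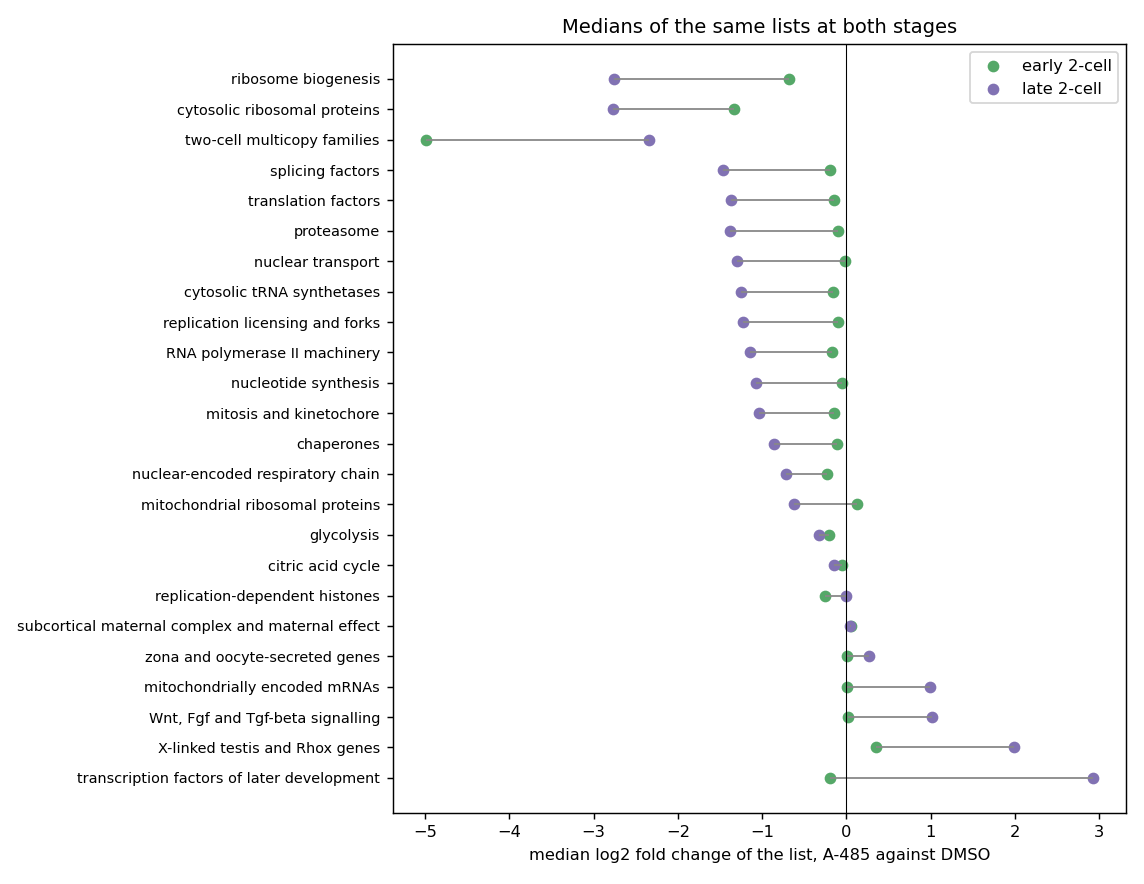
Median log2 fold change, A-485 against DMSO, of 24 functional lists at early 2-cell (green) and late 2-cell (purple), joined by a line. The 2-cell multicopy families had the lower median at early 2-cell, −4.99, while ribosome biogenesis moved from −0.69 to −2.75 and the transcription factors of later development from −0.19 to 2.93.

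The called genes differed in kind and position. Of genes called lower 88.3% were protein-coding, against 65.0% of genes called higher and 68.3% of the others. Among protein-coding genes that averaged 1 FPKM or more, the median span was 18.6 kb for genes that fell, 18.5 kb for genes that rose and 30.0 kb for the others. On the X chromosome 18.2% of genes of 1 FPKM or more fell and 23.1% rose, and on chromosome 11 33.5% fell and 9.71% rose, against 26.4% and 12.5% overall.

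Open chromatin had been mapped at early 2-cell by ATAC-seq, in which a transposase cuts accessible DNA, in embryos of both treatments. The authors' peaks, called reproducibly over replicates, numbered 27693 after DMSO and 13712 after A-485. For protein-coding genes of 1 FPKM or more, a peak lay within 1 kb of a start in the DMSO list for 72.8% of 3314 genes that fell at late 2-cell, 48.9% of 7011 not called and 26.7% of 1232 that rose. In the A-485 list the shares were 70.7%, 63.5% and 58.8%. A smaller share of the genes that rose had a promoter peak in DMSO embryos, and the 3 classes lay closer together after A-485. Over all genes tested, 7824 had such a peak in the DMSO list and 9871 in the A-485 list. The classes also differed in level, with a median DMSO FPKM of 23.7 (fell), 6.41 (not called) and 0.98 (rose). The part that level played was not tested. Dlx1, Pax6, Shisa2, Ank2 and Grin2a had a promoter peak in the A-485 list only, with a fold enrichment of 5.95 at Pax6 and 3.85 at Dlx1 as the authors' peak caller gave it. Sardh, Ifi35, Kcnk6, Ccdc137, Rps15 and Dppa4, which fell, had one in the DMSO list only, with 8.17 at Kcnk6 and 7.15 at Dppa4. Such a loss was not particular to genes that fell. Of the genes with a peak in the DMSO list, 16.9% of those that fell had none in the A-485 list. The share was 14.7% for those not called and 12.5% for those that rose. Pdgfra, Sox17, Bcl11a and Nr4a2, which rose, had none in either list. No replicate values of the peaks were used, so these shares carry no test.

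**Figure D5:**
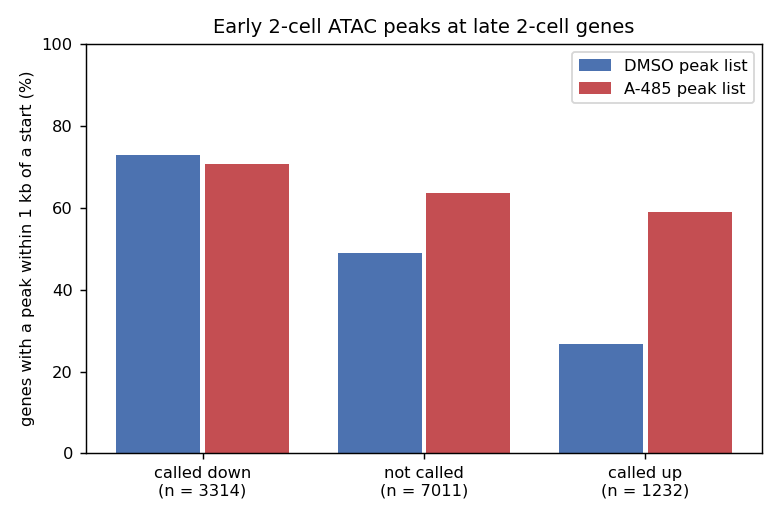
Percent of protein-coding genes of 1 FPKM or more that had an early 2-cell ATAC peak within 1 kb of a start, in the DMSO (blue) and A-485 (red) peak lists, for genes called lower, not called and called higher at late 2-cell. The DMSO bars descend from 72.8% to 26.7% and the A-485 bars from 70.7% to 58.8%.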

How the data were processed

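Total RNA of late 2-cell embryos had been sequenced by the authors with a stranded SMART-Seq kit. Per the labels and the study's methods, reads were trimmed with Trimmomatic 0.39, aligned to GRCm38 with STAR 2.7.8a and quantified per gene with RSEM 1.3.1. The deposited expected counts and FPKM of each library were used, and expected counts were rounded to whole numbers here. Genes whose counts in the 4 libraries came to 10 or more were tested with edgeR 4.0.16 (quasi-likelihood test, TMM) without a replicate block. SE is the absolute log2 fold change divided by the square root of F. The members and the 49 functional lists, written by gene symbol, were chosen with earlier results of these data known.

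Genes named were, among protein-coding genes with a proper name and groups that did not overlap, the 12 of each direction with the largest fold change and at least 10 FPKM in the higher group. In each list, up to 3 called genes of each direction with at least 5 FPKM and the 2 most abundant uncalled genes were candidates, as were the 5 most abundant genes of each group. The promoter genes and a few markers were chosen after their values were seen. Counts were called uncertain where RSEM's posterior SD exceeded 20% in a library. Ratios of counts carry 95% intervals for counting error only. The ATAC peaks and their fold enrichment (a ratio over local background) are the authors' values, pooled over replicates. A second reference for normal change was the zygote against the late 2-cell DMSO libraries of another experiment (at least 4-fold, adjusted p under 0.01). Alternatives covered scaling, filters, DESeq2 1.42.0, other sets of libraries, cutoffs, the block and each library left out. Python 3.11.15, pandas 2.3.3 and bedtools 2.31.1 were used.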

Additional observations from a re-analysis of the deposited data

How the results depend on the processing

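None of the called genes among the 333 named or considered for naming reversed under any of the 15 alternatives. With mitochondrially encoded mRNA scaling the genes called lower went from 3824 to 6874 and those called higher from 2406 to 1177. With a 4-fold cutoff 2282 genes were called lower. With each library left out in turn, 3447 to 3855 genes were called lower and 2128 to 2313 higher. DESeq2 called 3599 lower and 2418 higher, and total counts gave 3435 and 2935. With the replicate number as a block, 3852 genes were called lower and 2313 higher. The deviations of replicate 1 from its group mean had a correlation of −0.0396 between the groups over 9094 genes. With 2 libraries in a group, this single value cannot show whether libraries of equal number belong together. Depth limits the genes below about 1 FPKM, where a group can hold no count at all. Among the 333 genes, 13 were no longer called without A-485 replicate 1, 4 without A-485 replicate 2, 10 without DMSO replicate 1 and 13 without DMSO replicate 2. Scale and cutoff mattered more. With mitochondrially encoded mRNA scaling the results of 54 of the 333 were weaker and of 38 stronger, and with a 4-fold cutoff 53 were weaker.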
